A study of Mus musculus with 20 samples.

Results

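The lines m28, m54 and m107 are 3 mouse malignant mesothelioma (MM) lines given as sarcomatoid in the study's histology, and each was grown as MM organoids in 3D culture and as a 2D MM cell line. Their 6 libraries, of the 14 in the expression table, were taken by line name, and each organoid library was set against the 2D library of the same line. Lines m28 and m54 came from tumours of p53+/- mice (strain C57/BL6) injected intraperitoneally with crocidolite, an asbestos fibre, and m107 came from a p53+/- mouse injected with NT-50, a multi-walled carbon nanotube. Each line came from 1 mouse and was sequenced once per culture, so the 3 lines are the replicates and no library was repeated within a line. MM organoids grew in Matrigel, a basement membrane extract, in a medium with EGF, the Wnt pathway enhancer R-spondin1, the BMP antagonist Noggin and Y-27632, an inhibitor of the kinase ROCK. The 2D MM cell lines grew on plastic in medium with fetal bovine serum and were taken up by trypsin. The labels give serum for both cultures, while the study's text says that the organoid medium had none. Growth form, matrix, medium and harvest changed together between the cultures and cannot be told apart.

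Mesothelial cells line the body cavities, and the sarcomatoid form of mesothelioma consists of spindle-shaped cells that resemble fibroblasts. Cells that spread on a stiff flat surface pull on it through actin stress fibres, and this tension keeps the co-activators MRTF and YAP/TAZ in the nucleus, where MRTF works with the serum response factor SRF and YAP/TAZ work with TEAD proteins. Serum itself also activates both routes, and ROCK is a kinase that raises contraction. Genes of contractile proteins and of secreted matrix proteins are among the textbook targets of these factors.

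The 6 libraries held 11134018 to 15319961 reads counted in genes, so 0 reads of a gene allow a level of up to 0.196 to 0.269 CPM (reads scaled to the library total, with the limit taken as 3 reads and covering counting error only). Genes that reached 1 CPM in 3 or more of these libraries were tested, 11688 in all. Over them each organoid library was closest to the 2D library of its own line, with a Pearson correlation of log2(CPM + 1) of 0.908 for m28, 0.910 for m54 and 0.951 for m107. The 2D libraries of m28 and m54 were nearly as close to each other (r = 0.907). Of the summed variance of these genes, 66.8% lay between lines, 19.8% between cultures and 13.4% in the rest. With no effect of either, 40% would lie between lines and 20% between cultures. Lines took more than their 40%, so that 20% is no measure of whether culture had an effect. Mesenchymal marker genes (Vim, Fn1 and others, 9 in all) summed to 9953 to 28909 CPM in MM organoids and to 12735 to 22026 CPM in 2D MM cell lines, and mesothelial markers (13 genes) to 1300.0 to 7566 CPM in MM organoids and 2045 to 11745 CPM in 2D. Of the defining macrophage markers Adgre1, C1qb and Tyrobp had 0 reads in all 6 libraries, and the 12 macrophage markers summed to 5.85 to 18.2 CPM in MM organoids and 5.40 to 20.7 CPM in 2D. The 11 epithelial markers summed to 1.92 to 469 CPM in MM organoids and 17.5 to 1178 CPM in 2D. Krt7 was the main part in m54, m107 and 2D m28. Cdh1, the E-cadherin gene, stood at 208 CPM in 2D m54 against 6.85 CPM in 3D m54, and at most at 3.64 CPM in m28 and m107. Cldn3 stood at 110 CPM in 3D m107 and 45.7 CPM in 2D m107, while Cldn4 and Esrp1 were at 0 reads in all 6. Markers of T and B cells (5 genes) and of adipocytes (4 genes) summed to at most 0.666 CPM in any of the 6 libraries, and the 7 endothelial markers to at most 106.6 CPM, nearly all of it Kdr in 2D m107. In bulk RNA, fewer cells of a type and less RNA per cell cannot be told apart.

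In MM organoids, 17 genes rose and 31 fell at an adjusted p under 0.05 (limma, paired by line, log2 of CPM + 1, Benjamini-Hochberg over all genes tested), which is 0.145% and 0.265% of the genes tested (0.411% together). Actin-binding and contractile genes, YAP/TAZ target genes, collagens and other secreted matrix genes were among the falls, and chemokines, ERK-induced genes, the membrane skeleton genes Sptb and Ank1, and the genes of angiotensin-converting enzyme (Ace) and of the transcription factor SOX9 were among the rises. The log2 fold changes ran from 1.61 to 4.16 among the rises and from -6.17 to -1.65 among the falls, each in 1 direction in 3 of 3 lines. The 3 organoid values did not overlap the 3 values in 2D in 14 of the 17 rises and in 24 of the 31 falls. Of all genes tested, 6.55% had the organoid values all above and 3.72% all below. The 48 genes were chosen by a test on these same values, so this is no separate support. The adjusted p-values lay between 0.0218 and 0.0496, close to the threshold. Without m54 no gene passed (1199 at an unadjusted p under 0.05), and edgeR's quasi-likelihood test on the recovered reads called none either (1572 unadjusted), whereas DESeq2 called 795 genes. Without m28 the count was 272 and without m107 it was 186. At a pseudocount of 0.1 or 5, 30 or 33 of the 48 genes passed. The fold changes of 14 of them moved by over 1.5 times under at least 1 alternative.

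**Figure D1:**
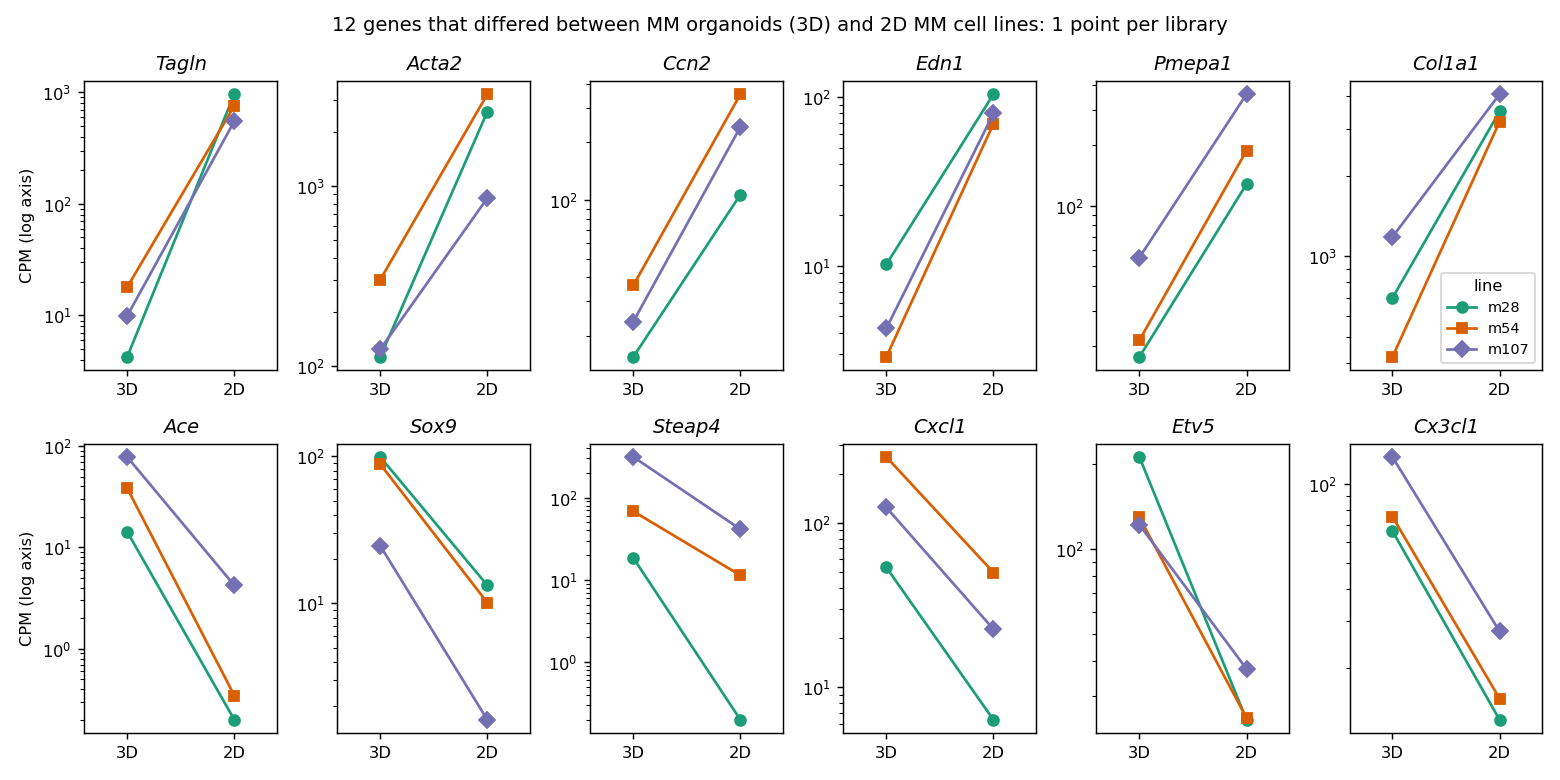
CPM (log axis) of 12 genes in MM organoids (3D, left) and in 2D MM cell lines (right), with 1 point per library and a line joining the libraries of a line. The upper 6 genes are lower in 3D in each line (Tagln at 4.23 to 17.9 CPM in 3D against 551 to 962 CPM in 2D) and the lower 6 are higher (Ace at 14.3 to 78.1 CPM in 3D against 0.200 to 4.22 CPM in 2D).

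Contractile genes fell. Tagln (GRCm39 chr9:45840909-45847404), which encodes transgelin, an actin-binding protein of smooth muscle and myofibroblasts, stood at 4.23, 17.9 and 9.87 CPM in MM organoids of m28, m54 and m107, against 962, 756 and 551 CPM in the 2D MM cell lines. Its log2 fold change was -6.17 ± 0.43 (limma's moderated SE, n = 3 lines, adjusted p = 0.0218). This was the largest fall at a pseudocount of 1, and it stayed between -6.59 and -5.50 over the alternatives. Acta2 (chr19:34217737-34232990), the smooth muscle alpha-actin gene, stood at 112, 301 and 124 CPM in MM organoids, against 2589.6, 3240.4 and 858 CPM in 2D (log2 fold change -3.57 ± 0.34, adjusted p = 0.0325). Both genes were lower in every organoid library than in any 2D library, and the difference was largest in m28 for both (-7.52 for Tagln and -4.52 for Acta2). Tpm1 (chr9:66929870-66956953), the gene of a tropomyosin that stabilises actin filaments, stood at 591, 567 and 698 CPM in MM organoids, against 2747, 1932 and 2108 CPM in 2D (-1.86 ± 0.24, adjusted p = 0.0496).

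The list of actin genes and SRF targets held 30 genes, of which 29 were tested. Tagln, Acta2 and Tpm1 fell and none rose (0.265% and 0.145% of all genes). The median log2 difference was -0.75, beside 0.10 over all genes tested. Of the 29 genes, 18 were lower in MM organoids in 3 of 3 lines (14% of all genes) and in 9 the groups did not overlap, with the organoids below (3.72% of all genes). At an unadjusted p under 0.05, 15 were lower and 0 higher (5.78% and 9.18% of all genes). Cnn1, the calponin gene, had 0, 8.88 and 7.80 CPM in MM organoids against 32.6, 90.9 and 44.5 CPM in 2D, and Csrp1 (named after its values were seen), which encodes an actin-associated LIM protein, had 137, 129 and 221 CPM against 339.6, 475 and 467 CPM in 2D. Neither passed the test (adjusted p = 0.0630 and 0.0657), although their groups did not overlap.

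Of the genes that YAP and TAZ activate with TEAD proteins, 3 fell. Ccn2, which encodes the secreted matrix protein CTGF, stood at 15.5, 36.3 and 23.6 CPM in MM organoids, against 107.1, 354 and 239.8 CPM in 2D (log2 fold change -3.09 ± 0.21, adjusted p = 0.0218). Amotl2 (chr9:102593836-102610617), the gene of an angiomotin-like protein that holds YAP in the cytoplasm, stood at 105, 173 and 142 CPM in MM organoids, against 341, 585 and 407 CPM in 2D (-1.65 ± 0.18, adjusted p = 0.0389). Fstl1, a gene of a secreted follistatin-like glycoprotein, stood at 180.4, 139 and 238 CPM in MM organoids, against 797, 984 and 1142 CPM in 2D (-2.40 ± 0.22, adjusted p = 0.0290). In all 3 genes each organoid library lay below each 2D library. The differences of Amotl2 were close to each other, at -1.69 in m28, -1.76 in m54 and -1.51 in m107.

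Over the 27 genes of the YAP and TAZ list, all tested, these 3 fell and none rose, and the median log2 difference was -0.77, beside 0.10 over all genes. The share past the threshold in this direction was 0.265% over all genes. In 18 genes MM organoids were lower in 3 of 3 lines (14% of all genes), and in 12 the groups did not overlap, with the organoids below (3.72% of all genes). Lats2, a kinase gene of the Hippo pathway that restrains YAP, had 24.8, 23.8 and 35.7 CPM in MM organoids against 78.6, 65.4 and 101.5 CPM in 2D, just outside the threshold (adjusted p = 0.0524). Ccn1, a relative of Ccn2, had 118, 409 and 50.8 CPM in MM organoids against 580.1, 1191 and 437 CPM in 2D (adjusted p = 0.0524), and Ajuba, which encodes a LIM protein that inhibits LATS kinases, had 87.5, 85.4 and 102 CPM against 396, 210.0 and 279 CPM in 2D (adjusted p = 0.0573), both named after their values were seen. In the other direction, Amotl1, a relative of Amotl2, was the 1 gene higher in 3 of 3 lines (23.6% of all genes). It had 360, 172 and 193 CPM in MM organoids against 224, 119 and 150 CPM in 2D (adjusted p = 0.260). The median of the list was -1.15 in m28, -1.19 in m54 and -0.37 in m107.

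The promoters of Amotl2 and Tagln are shown because both genes fell and both promoters hold motifs of the factors named above. Each sequence is the 250 bases before the start of the canonical transcript in the GENCODE annotation of GRCm39, read in the direction of the gene. Capitals mark the TEAD core GGAATG (or CATTCC on the other strand) in Amotl2 and the CArG box, the element of SRF, in Tagln.
Amotl2 (chr9:102594617-102594866, plus strand): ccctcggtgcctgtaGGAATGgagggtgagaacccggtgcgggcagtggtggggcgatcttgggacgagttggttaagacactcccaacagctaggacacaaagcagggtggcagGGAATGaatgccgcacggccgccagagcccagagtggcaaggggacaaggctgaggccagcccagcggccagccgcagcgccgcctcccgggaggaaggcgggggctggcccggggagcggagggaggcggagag
Tagln (chr9:45847405-45847654, minus strand): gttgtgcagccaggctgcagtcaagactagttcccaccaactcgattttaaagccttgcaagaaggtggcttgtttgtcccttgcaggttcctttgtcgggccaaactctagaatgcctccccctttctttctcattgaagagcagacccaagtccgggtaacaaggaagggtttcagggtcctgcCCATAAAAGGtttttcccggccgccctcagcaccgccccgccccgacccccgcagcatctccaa
The window of Amotl2 holds 2 TEAD cores, at 235 and 135 bases before the start. The Tagln window holds 1 CArG box, 64 bases before the start. On either strand, the TEAD core is found in 12.1% of the 21484 windows of this kind in the table's genes and the CArG box in 1.401%. Among the 31 genes that fell, 5 windows held a TEAD core and 1 a CArG box, and among the 17 that rose 1 held a TEAD core and 0 a CArG box. In the YAP and TAZ list 8 of 27 windows held the TEAD core, and in the actin list 7 of 30 held the TEAD core and 7 of 30 a CArG box. These are matches of letters, and binding was not measured.

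Genes of collagens and other matrix proteins fell as well. Col12a1 (chr9:79506268-79626135), a collagen on the surface of fibrils, stood at 1.39, 12.9 and 2.51 CPM in MM organoids, against 86.9, 234 and 47.0 CPM in 2D (log2 fold change -4.35 ± 0.34, adjusted p = 0.0254). Col1a1 (chr11:94827050-94843868), a chain of the main fibrillar collagen, stood at 699, 419.8 and 1182 CPM in MM organoids, against 3495, 3196 and 4054 CPM in 2D (-2.34 ± 0.30, adjusted p = 0.0473). The groups did not overlap in either gene, with MM organoids below. Tnc (named after its values were seen), the tenascin C gene of a matrix protein of wounds and tumour stroma, stood at 3.46, 32.8 and 21.3 CPM in MM organoids, against 26.6, 287 and 106 CPM in 2D (-2.66 ± 0.25, adjusted p = 0.0304). Its groups overlapped, because 2D m28 lay below 3D m54, while each line on its own was lower in 3D. Timp3, an inhibitor of matrix metalloproteinases, fell too, with 106.8, 709 and 609.6 CPM in MM organoids against 673, 2258 and 2529 CPM in 2D (-2.12 ± 0.25, adjusted p = 0.0411). Here 2D m28 lay below 3D m54, so the groups overlapped.

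Not every collagen gene followed Col1a1. Of 17 tested genes in the list of fibrillar and basement membrane collagens, 2 fell and none rose (0.265% and 0.145% of all genes). The median of the list was -0.35. Col5a2, a minor fibrillar collagen, had 254, 38.2 and 337 CPM in MM organoids against 1498, 2092 and 2819 CPM in 2D without passing the test (adjusted p = 0.0657), and Col4a2, of basement membranes, had 78.4, 17.0 and 523 CPM against 596, 251 and 1003 CPM in 2D (adjusted p = 0.0976). The chains of the beaded-filament collagen type VI ran the other way. Col6a1 had 2302, 1706 and 925 CPM in MM organoids against 252, 720.4 and 751 CPM in 2D, and Col6a2 had 1192, 1014 and 596 CPM against 166, 430.1 and 444 CPM in 2D. No organoid library of these genes lay at or below a 2D library, but the differences were uneven between lines (3.18, 1.24 and 0.30 for Col6a1 in m28, m54 and m107) and neither passed (adjusted p = 0.243 and 0.202). Col15a1, a basement membrane zone collagen, showed the widest spread, with 865, 52.0 and 17.5 CPM in MM organoids against 0.799, 2.36 and 9.70 CPM in 2D (adjusted p = 0.204).

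In the lists of TGF-beta and BMP signalling 1 feedback gene fell. Pmepa1 (chr2:173066251-173118444), a membrane protein gene induced by TGF-beta that dampens its signal, stood at 17.6, 21.3 and 55.2 CPM in MM organoids, against 128, 188 and 359 CPM in 2D (log2 fold change -2.85 ± 0.20), with the smallest p-value of all genes (adjusted p = 0.0218). The log2 difference was -2.79 in m28, -3.08 in m54 and -2.68 in m107. Of 16 tested genes in the TGF-beta and activin list only Pmepa1 passed (0.265% of all genes fell). In this list 11 were lower in 3 of 3 lines (14% of all genes) and the median was -1.02. Inhba, which encodes a subunit of activin, had 1.69, 13.9 and 9.87 CPM in MM organoids against 54.6, 160.2 and 39.1 CPM in 2D (adjusted p = 0.0635), and Skil, a repressor of SMAD proteins, had 45.1, 27.5 and 53.96 CPM against 105, 106 and 118 CPM in 2D (adjusted p = 0.0736). In the BMP list none of 14 tested genes passed, 9 were lower in 3 of 3 lines (14% of all genes) and the median was -0.97. Smad6, an inhibitory SMAD gene induced by BMP, had 30.8, 18.7 and 74.6 CPM in MM organoids against 109, 112 and 184 CPM in 2D (adjusted p = 0.0635). Gdf6 (chr4:9844350-9862354), which encodes a ligand of the BMP family and is not in that list, fell, with 9.09, 0.587 and 5.54 CPM in MM organoids against 41.3, 12.8 and 50.3 CPM in 2D (-2.72 ± 0.32, adjusted p = 0.0411).

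Several further genes that fell encode secreted or surface proteins. Edn1 (chr13:42446301-42461466), the precursor gene of the vasoconstrictor endothelin-1, stood at 10.2, 2.87 and 4.24 CPM in MM organoids, against 104, 69.4 and 79.8 CPM in 2D (-3.79 ± 0.29, adjusted p = 0.0254). Prss23 (chr7:89152034-89176756), a serine protease gene, stood at 0.0770, 9.14 and 2.34 CPM in MM organoids, against 231, 233 and 108 CPM in 2D (-5.77 ± 0.62, adjusted p = 0.0378), and its value in 3D m28 was 1 read. Igfbp2, which encodes a binding protein of insulin-like growth factors, stood at 0.154, 2.15 and 1.65 CPM in MM organoids, against 16.3, 27.7 and 40.6 CPM in 2D (-3.69 ± 0.32, adjusted p = 0.0254). In each of these genes the organoid libraries were all below the 2D libraries. Cemip, whose product breaks down hyaluronan, had 0.154, 3.07 and 2.43 CPM in MM organoids against 28.3, 59.7 and 24.1 CPM in 2D (-3.81 ± 0.40, adjusted p = 0.0378). Sema3d, of the secreted guidance cues called semaphorins, had 8.85, 6.20 and 11.8 CPM in MM organoids against 102, 157 and 66.9 CPM in 2D (-3.42 ± 0.40, adjusted p = 0.0411). The values of Igfbp2 and Cemip in 3D m28 were 2 reads each.

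Among the falls were also Fras1, a gene of a basement membrane adhesion protein (log2 fold change -2.89), the scaffold protein gene Akap12 (-2.83), Scube3, which encodes a secreted EGF-like protein (-2.74), and the genes of the transcription factors SOX8 and DLX2 (-2.97 and -2.66, Dlx2 named after its values were seen). Fras1 and Scube3 overlapped between the groups, since m107 had far more of them in both cultures than m28. The remaining 9 falls ran from -2.58 to -1.65, and all but Slc39a8 were named after their values were seen. They were Kif26b, the Ras-family GTPase gene Mras, Csdc2, the zinc and metal importer gene Slc39a8 (-2.48), the tubulin gene Tubb2b, Dipk2a, Arhgap29 (the gene of a GTPase-activating protein), the interleukin-4 receptor gene Il4ra and Gm2a. Mras had even levels across the lines, with 23.6, 26.6 and 37.8 CPM in MM organoids against 160.3, 178 and 169.8 CPM in 2D.

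**Figure D2:**
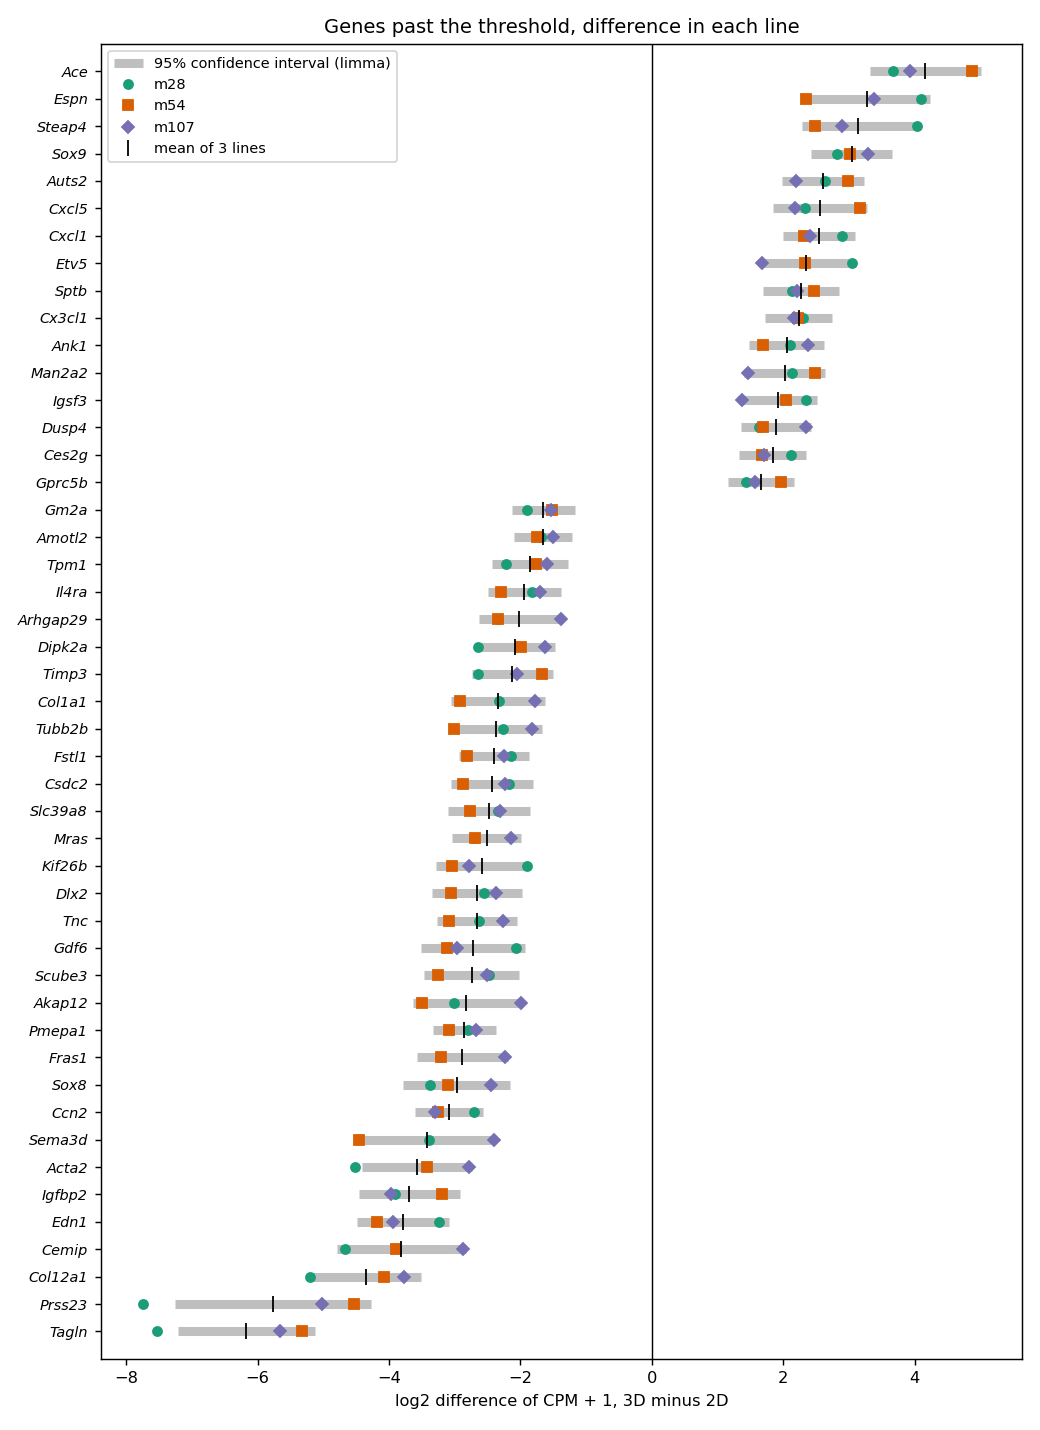
Log2 difference of CPM + 1, 3D minus 2D, of 47 genes past the threshold, with 1 marker per line (m28, m54, m107), the mean of the lines as a tick and limma's 95% confidence interval as a grey bar. All markers of the 16 rises drawn lie right of 0 and all markers of the 31 falls lie left of it, as the means from -6.17 (Tagln) to 4.16 (Ace) do.

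Of the genes that rose, Ace (chr11:105858469-105880790) had the largest fold change at a pseudocount of 1. Its product removes dipeptides from angiotensin I and other peptides at the cell surface. It stood at 14.3, 38.4 and 78.1 CPM in MM organoids, against 0.200, 0.347 and 4.22 CPM in 2D (log2 fold change 4.16 ± 0.35, adjusted p = 0.0254), and the values in 2D m28 and 2D m54 were 3 and 5 reads. Over the alternatives its log2 fold change ran from 2.696 (pseudocount 5) to 5.45 (DESeq2). Espn (chr4:152204788-152236887), which encodes espin, a protein that bundles actin in microvilli and stereocilia, stood at 60.7, 10.1 and 79.2 CPM in MM organoids, against 2.60, 1.18 and 6.74 CPM in 2D (3.28 ± 0.39, adjusted p = 0.0411). Both genes were higher in every organoid library than in any 2D library.

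Sptb and Ank1, whose products beta-spectrin and ankyrin-1 form the membrane skeleton and tie it to membrane proteins, both rose. Sptb stood at 63.6, 29.5 and 76.1 CPM in MM organoids, against 13.8, 4.50 and 15.7 CPM in 2D (2.27 ± 0.24, adjusted p = 0.0378). Ank1 stood at 97.3, 78.5 and 73.7 CPM in MM organoids, against 21.9, 23.6 and 13.5 CPM in 2D (2.05 ± 0.23, adjusted p = 0.0399). The groups did not overlap in either gene.

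The SoxE transcription factor genes moved in opposite directions. Sox9 (chr11:112673009-112678586), known from cartilage, ducts and progenitor cells of several organs, stood at 99.2, 88.6 and 24.7 CPM in MM organoids, against 13.3, 10.1 and 1.62 CPM in 2D (3.04 ± 0.25, adjusted p = 0.0254). Sox8, its close relative, stood at 0.924, 0.914 and 0.173 CPM in MM organoids, against 19.0, 15.4 and 5.39 CPM in 2D (-2.97 ± 0.33, adjusted p = 0.0399). The fold change of Sox8 ran from -4.48 (DESeq2) to -1.60 over the alternatives, and its call was lost at a pseudocount of 5. In both genes m107 had the lowest value within each culture.

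Among chemokine genes 3 rose. Cxcl1 (chr5:91039094-91040974), which draws neutrophils through the receptor CXCR2, stood at 53.7, 253 and 124 CPM in MM organoids, against 6.33, 49.9 and 22.5 CPM in 2D (2.54 ± 0.22, adjusted p = 0.0260). Cxcl5 (chr5:90907186-90909483), of the same class, stood at 5.39, 237 and 119 CPM in MM organoids, against 0.266, 25.6 and 25.4 CPM in 2D (2.56 ± 0.29, adjusted p = 0.0399), so that m28 was low in both cultures and the groups overlapped. Cx3cl1 (chr8:95498637-95509055), the gene of the membrane-bound chemokine fractalkine, stood at 66.4, 75.2 and 127 CPM in MM organoids, against 12.7, 15.2 and 27.5 CPM in 2D (2.23 ± 0.21, adjusted p = 0.0304). Its differences were nearly equal, at 2.30, 2.23 and 2.17. In the list of cytokines and chemokines, with 21 tested genes, these 3 rose and none fell (0.145% and 0.265% of all genes). The median was 0.46, at 0.73 in m28, -0.11 in m54 and 0.83 in m107. Csf1, the growth factor gene of macrophages, lay on the other side, with 304, 499.7 and 167 CPM in MM organoids against 785, 1457 and 301 CPM in 2D (adjusted p = 0.0791), while Il34, the gene of the other ligand of the same receptor, had 15.2, 23.4 and 28.1 CPM in MM organoids against 4.33, 3.33 and 11.8 CPM in 2D (adjusted p = 0.0943).

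Among genes that ERK signalling induces 2 rose. Etv5 (chr16:22200052-22259662), an ETS transcription factor gene downstream of ERK, stood at 213, 129.9 and 122 CPM in MM organoids, against 24.8, 25.2 and 37.5 CPM in 2D (2.35 ± 0.29, adjusted p = 0.0462). Dusp4 (chr8:35274442-35287048), a phosphatase gene of the ERK feedback loop, stood at 331, 120.0 and 192 CPM in MM organoids, against 106, 36.7 and 36.9 CPM in 2D (1.89 ± 0.22, adjusted p = 0.0411). These were the 2 rises among 22 tested genes of the ERK and AP-1 list (0.145% of all genes rose), and none fell. The list had a median of 0.44, with 11 genes higher in 3 of 3 lines (23.6% of all genes). Etv4, a relative of Etv5, missed the threshold narrowly (168, 92.0 and 181 CPM in MM organoids, 38.6, 37.0 and 47.9 CPM in 2D, adjusted p = 0.05003). The AP-1 genes Jun and Fosl2 in the same list had lower values in MM organoids. Jun had 34.6, 98.6 and 25.7 CPM in MM organoids against 108, 109 and 116 CPM in 2D (adjusted p = 0.204), and Fosl2 had 183, 109 and 131 CPM against 245, 246 and 238 CPM in 2D (adjusted p = 0.160).

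Steap4 (chr5:8010260-8032214), a metalloreductase gene of iron and copper uptake, rose, with 18.6, 68.3 and 313 CPM in MM organoids against 0.200, 11.4 and 41.3 CPM in 2D (3.13 ± 0.35, adjusted p = 0.0399). The value in 2D m28 was 3 reads, and 3D m28 lay below 2D m107, so the groups overlapped. In the list of iron handling, with 18 tested genes and a median of 0.26, Steap4 rose and Slc39a8 fell (0.145% and 0.265% of all genes). Lcn2, which encodes the iron-siderophore binding protein lipocalin-2, missed the threshold narrowly too, with 7.01, 25.8 and 9.44 CPM in MM organoids against 0.0666, 0.139 and 0.539 CPM in 2D (log2 fold change 3.41, adjusted p = 0.05003), where the values in 2D were 1, 2 and 6 reads. Trf, the transferrin gene, had 578, 2461 and 8931 CPM in MM organoids against 61.5, 1090.3 and 3097 CPM in 2D (adjusted p = 0.108). The other rises included Auts2, a gene of a nuclear regulator (2.60), the Golgi mannosidase gene Man2a2 (2.02), Igsf3 (1.92), the carboxylesterase gene Ces2g (1.84) and the receptor gene Gprc5b (1.65), the last named after its values were seen.

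Genes of sterol synthesis and uptake had higher values in MM organoids, but none of them passed the test. Of 23 tested genes, 21 were higher in 3 of 3 lines (23.6% of all genes), in 18 the organoid values all lay above those in 2D (6.55% of all genes), and the median was 1.61. Insig1, which encodes a sterol sensor of the endoplasmic reticulum, had 363, 211 and 186 CPM in MM organoids against 42.2, 47.6 and 64.8 CPM in 2D (adjusted p = 0.0566). Fdps, for farnesyl diphosphate synthase, had 191, 181 and 106 CPM in MM organoids against 20.5, 30.1 and 45.4 CPM in 2D (adjusted p = 0.0715), and Lss, for lanosterol synthase, had 226, 167 and 99.8 CPM against 41.0, 41.1 and 48.3 CPM in 2D (adjusted p = 0.0714). The line m107 lay below the others, with a median of 0.87, beside 1.91 in m28 and 1.81 in m54. Ebp was the 1 gene of the list that was lower in 3 of 3 lines, named after its values were seen. Over the alternatives the median of the list stayed between 1.26 and 1.98.

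**Figure D3:**
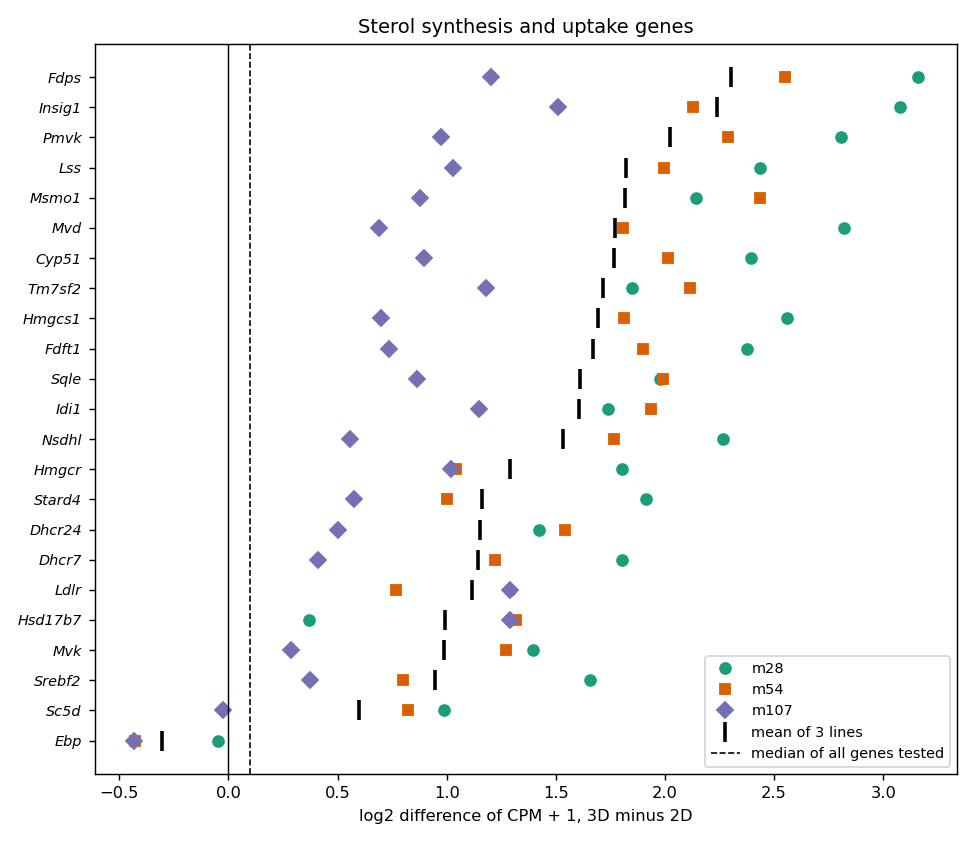
Log2 difference of CPM + 1, 3D minus 2D, of 23 genes of sterol synthesis and uptake, with 1 marker per line and the mean of the lines as a tick. Most markers lie right of the dashed line, the median of all genes tested (0.10), and the markers of m107 (median 0.87) mostly lie left of those of m28 (1.91) and m54 (1.81).

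Genes of fatty acid synthesis and desaturation had a median of 0.59, with 8 of 15 higher in 3 of 3 lines (23.6% of all genes) and in 8 the organoids all above 2D (6.55% of all genes). Elovl6, an elongase gene, had 92.4, 249 and 70.8 CPM in MM organoids against 36.4, 38.4 and 23.3 CPM in 2D (adjusted p = 0.0714), and Scd1, a desaturase gene, had 625, 270.1 and 334 CPM against 89.8, 102 and 166 CPM in 2D (adjusted p = 0.1003). In the list of ATF4 and amino acid stress genes 18 of 21 were higher in 3 of 3 lines (against the same 23.6%), the median was 0.90 and none passed. Vldlr, a lipoprotein receptor gene that ATF4 can induce, had 199, 100.5 and 97.8 CPM in MM organoids against 39.7, 48.4 and 34.9 CPM in 2D (adjusted p = 0.0791), and Mthfd2, of mitochondrial folate metabolism, had 420.1, 236 and 119.5 CPM against 243, 149 and 49.4 CPM in 2D (adjusted p = 0.118). Genes of hypoxia and glycolysis had a median of 0.63, with 14 of 25 higher in 3 of 3 lines (23.6% of all genes) and none past the threshold. Vegfa, the angiogenic growth factor gene, had 1292, 161 and 306 CPM in MM organoids against 272, 75.2 and 87.1 CPM in 2D (adjusted p = 0.0635). The median of this list was 0.08 in m54, where it was 0.85 in m28 and 0.92 in m107. Among genes induced when growth factors are withdrawn (20 tested, none past the threshold, median 0.65), Ddit4, an inhibitor gene of mTORC1, had 718, 179.8 and 84.4 CPM in MM organoids against 34.3, 28.8 and 18.7 CPM in 2D (adjusted p = 0.0573).

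**Figure D4:**
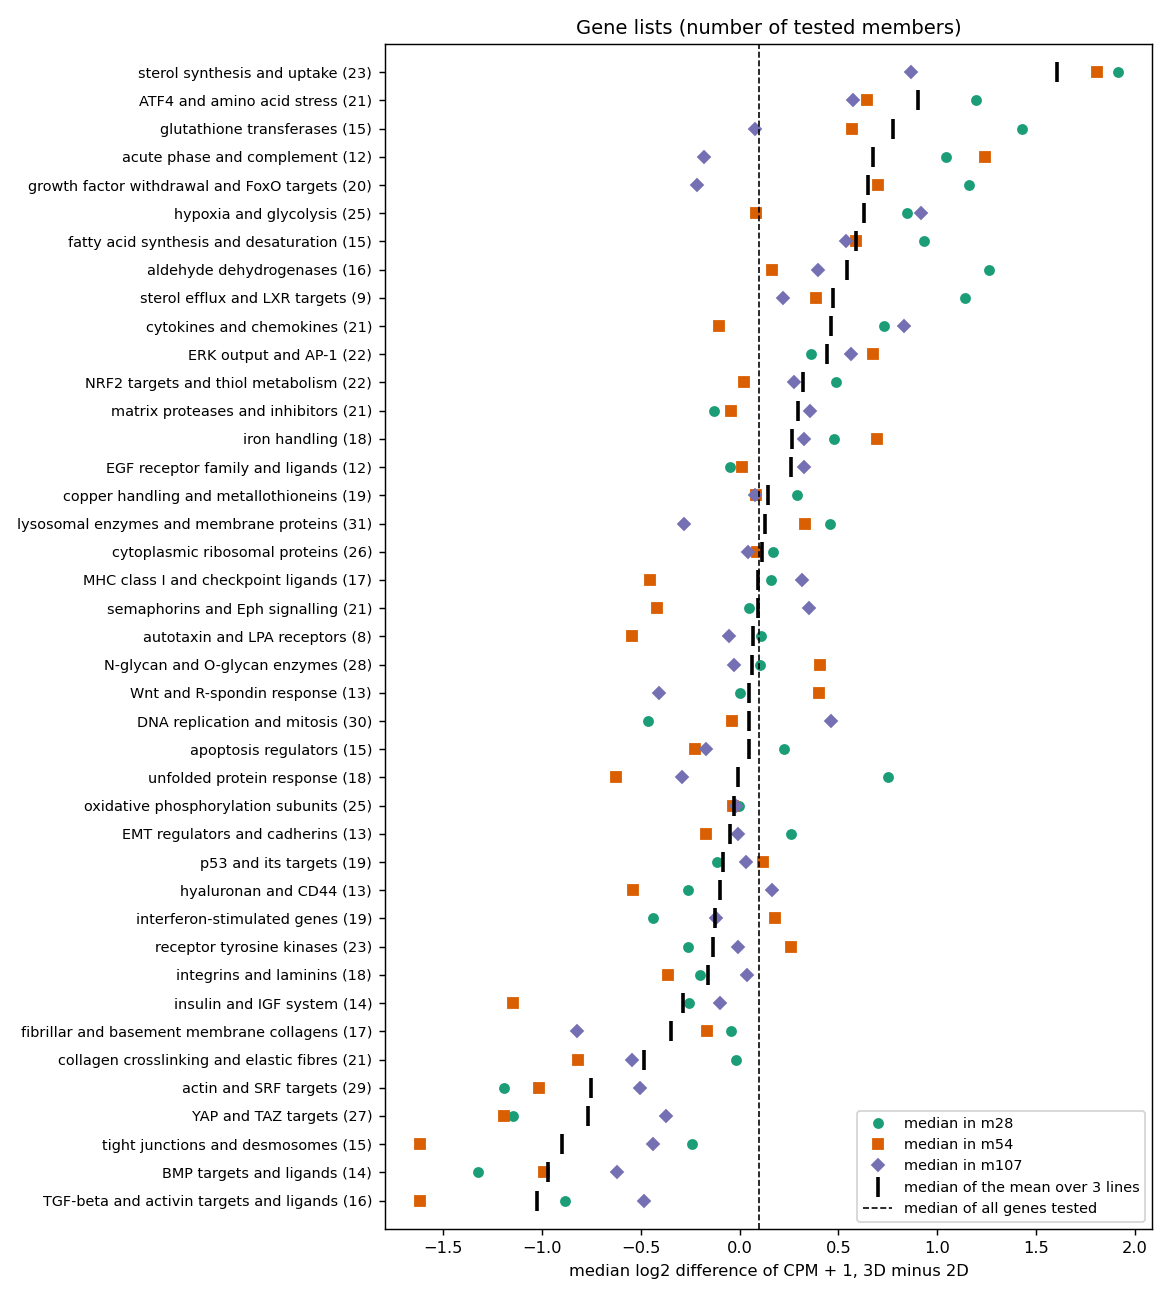
Median log2 difference of CPM + 1, 3D minus 2D, of the tested members of each pathway list (their number in brackets) in each line, with the median of the means over lines as a tick and the median of all genes tested (0.10) as a dashed line. Among these lists, which are the pathway lists with 8 or more tested genes, the sterol list lies highest (1.61) and the list of TGF-beta and activin genes lowest (-1.02), and the lines lie apart in most lists (sterol genes at 1.91 in m28 and 0.87 in m107).

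None of the 12 tested mesothelial markers passed the test, and their median was -0.96. Msln, the mesothelin gene, had 30.9, 64.0 and 143 CPM in MM organoids against 79.9, 480.4 and 418 CPM in 2D, lower in each line (log2 fold change -1.93, adjusted p = 0.0742). Wt1, the gene of the mesothelial transcription factor WT1, had 409.8, 153 and 724 CPM in MM organoids against 314, 413 and 957 CPM in 2D, with m28 in the other direction from m54 and m107 (-0.48, adjusted p = 0.583). Upk3b, a uroplakin gene of mesothelium, had 528, 291 and 1937 CPM in MM organoids against 683, 1410.3 and 4956 CPM in 2D (adjusted p = 0.186). The 9 mesenchymal markers had a median of -0.35, with Col1a1 as their 1 fall, and they did not move together. Pdgfra, a PDGF receptor gene, was higher in each line, with 118, 479 and 226 CPM in MM organoids against 65.7, 140 and 134 CPM in 2D (adjusted p = 0.119). The mean differences of Pdgfrb, Fn1 and S100a4 were positive too, with lines in both directions, and those of the other members were negative. Vim, the vimentin gene, had 813, 864 and 966 CPM in MM organoids against 2805, 2250.3 and 1076 CPM in 2D (adjusted p = 0.227). Of 12 genes that the study named none passed, where 0.411% of all genes tested did. Egfr, the receptor gene of EGF, had 239, 103 and 170.1 CPM in MM organoids against 433, 131 and 187 CPM in 2D (adjusted p = 0.391), Itgb1, the integrin beta-1 gene, had 1296, 517 and 1232 CPM against 1606, 986 and 1575 CPM in 2D (adjusted p = 0.370), and Cdkn2a, a tumour suppressor locus often lost in mesothelioma, had 569, 601 and 259 CPM against 275, 254 and 222 CPM in 2D (adjusted p = 0.204).

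Further lists without a gene past the threshold lay away from the median of all genes. The median was -0.93 for keratins (7 tested), -0.90 for tight junctions and desmosomes (15), -0.48 for collagen crosslinking and elastic fibres (21), 0.78 for glutathione transferases (15), 0.68 for acute phase and complement genes (12) and 0.54 for aldehyde dehydrogenases (16). These medians were uneven between lines. In m28, m54 and m107 the keratins had 0.004, -1.89 and 0.41, and their median turned to 0.33 without m54. Tight junctions and desmosomes had -0.24, -1.62 and -0.44, and acute phase and complement genes 1.04, 1.24 and -0.18. Lists of basic cell functions lay nearer to the median of all genes. The 26 genes of cytoplasmic ribosomal proteins had a median of 0.11 and the 25 subunits of oxidative phosphorylation one of -0.03, with none at an unadjusted p under 0.05 in either. The most abundant ribosomal genes Rpl8, Rps2 and Rplp0 had log2 differences of 0.06, 0.01 and 0.15, and the most abundant of oxidative phosphorylation, Atp5b, Atp5a1 and Cox4i1, had 0.04, -0.12 and 0.18, none past the threshold. The signs of Rpl8, Rps2 and Atp5b turned under TMM scaling. The 30 genes of DNA replication and mitosis had a median of 0.05, with medians of -0.46 in m28, -0.04 in m54 and 0.46 in m107, and over the alternatives its median ran from -0.24 to 0.17. Mki67, a marker of cycling cells, had 457, 471 and 350.1 CPM in MM organoids against 562, 397 and 184 CPM in 2D (log2 fold change 0.29, 95% confidence interval -0.37 to 0.95, adjusted p = 0.675). Its log2 difference was -0.30 in m28, 0.25 in m54 and 0.93 in m107, and the mean turned to -0.025 without m107. Top2a, the topoisomerase gene of dividing cells, had 487, 461 and 549.5 CPM in MM organoids against 525, 592 and 346 CPM in 2D (0.07, adjusted p = 0.940), and its sign turned under TMM scaling (-0.020). Rrm1, which encodes a subunit of ribonucleotide reductase, had lower values in each line, with 255, 296 and 219 CPM in MM organoids against 690.5, 524 and 323 CPM in 2D (-0.94, adjusted p = 0.144).

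The 3 lines differed in how much they changed. The SD of the log2 differences over all tested genes was 0.977 in m28, 0.868 in m54 and 0.616 in m107, and 1618, 1172 and 465 genes were more than 2-fold higher in MM organoids of these lines, beside 708, 852 and 489 that were more than 2-fold lower. Computed over genes, which are no replicates, the differences of m28 and m54 correlated with r = 0.463, those of m28 and m107 with 0.350 and those of m54 and m107 with 0.405. The line m107, the carbon nanotube line, had the smallest spread of these lines, but the agent is carried by 1 line only and cannot be told apart from the line.

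The lines outside the comparison served as libraries that had no part in choosing the 48 genes. They were m5, m12 and m60, given as biphasic in the study's histology, and m67, from ascites of a wild-type mouse given crocidolite. A figure legend of the study instead calls m12 epithelioid and m5 sarcomatoid, and the histology summary was followed here. In m60 the median log2 difference was 1.59 over the 17 rises and -0.64 over the 31 falls, and in m67 it was 1.99 and -1.12, where the medians of all genes tested were -0.01 and 0.16. Of the 17 rises, 15 were higher in MM organoids in m60 and 17 in m67 (49.4% and 62.7% of all genes tested), and of the 31 falls, 21 were lower in m60 and 26 in m67 (50.5% and 37.2% of all genes). The pairs of m5 and m12 are in doubt, since in each the cultures differ in Y-linked genes although a line comes from 1 mouse. Reads of 4 such genes numbered 0 in 3D m5 against 12572 in 2D m5, and 10773 in 3D m12 against 0 in 2D m12. Epithelial markers had a median log2 difference of 8.17 in m12 and 0.23 in m5. Whether libraries were exchanged was not tested. By the study's methods the injected mice were male. In the sarcomatoid lines the same genes had 0 reads in 3D m28 against 10 in 2D m28, and 1691 in 3D m107 against 2066 in 2D m107. They had 171 reads in 3D m54 against 795 in 2D m54, so the cultures of m54 differed in them too. As labelled, 16 of the 17 rises and 30 of the 31 falls had the same direction in m5 (54.3% and 45.7% of all genes tested). In m12 it was 10 and 28 (50.4% and 49.6% of all genes), so the rises in m12 lay near the share of all genes. In both m60 and m67, 15 of the 17 rises and 19 of the 31 falls had the same direction, Tagln, Acta2, Pmepa1, Amotl2, Tpm1, Ace, Sox9, Cx3cl1 and Steap4 among them. With m5 and m12 as labelled, 9 rises and 16 falls had the same direction in all 4 lines. The shares of all genes tested that kept a direction in both m60 and m67, or in all 4 lines, were not computed.

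**Figure D5:**
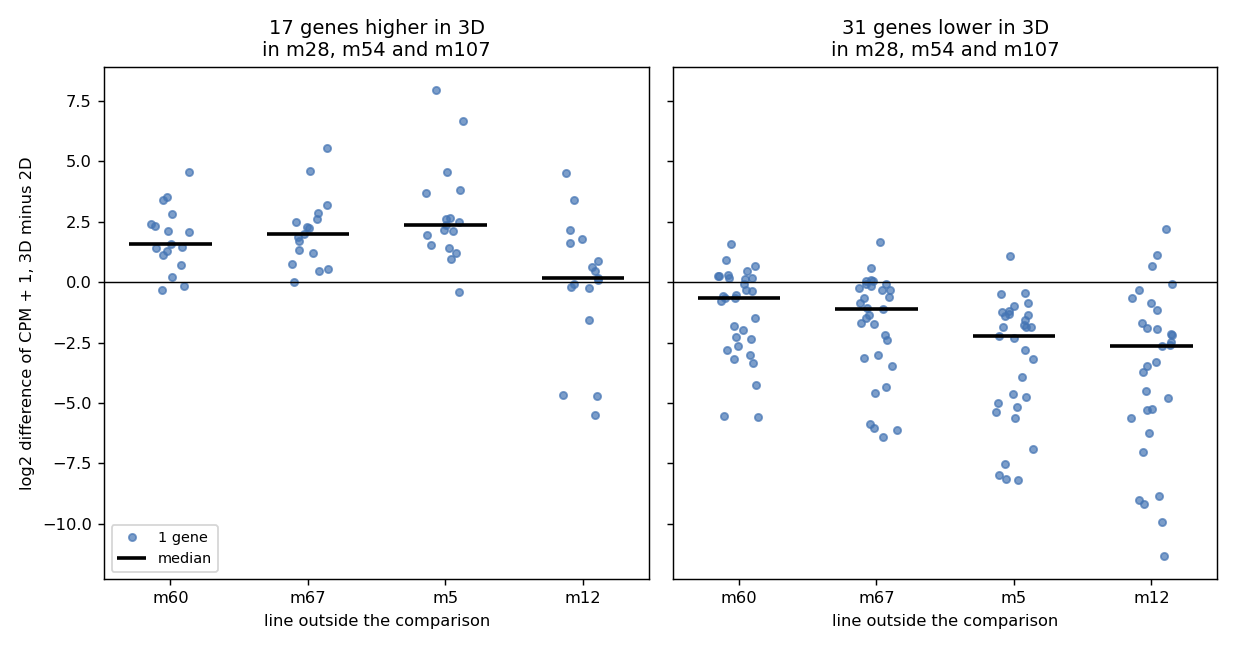
Log2 difference of CPM + 1, 3D minus 2D, in the 4 lines outside the comparison, for the 17 genes higher (left panel) and the 31 genes lower (right panel) in MM organoids of m28, m54 and m107, with 1 point per gene and a bar at the median. The medians of the left panel lie above 0 (1.59 in m60, 1.99 in m67) and those of the right panel are negative (-0.64 in m60, -1.12 in m67).

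The culture effect in m28, m54 and m107 was also set against that in m5, m12 and m60 by an interaction term. The term took m5 and m12 as biphasic and as labelled, and both points are in doubt, as given above. No gene of 12428 passed by limma (668 at an unadjusted p under 0.05, 5.37%), and none passed by edgeR (532 unadjusted). With m60 as the only biphasic line, again no gene passed (1370 unadjusted). Among the 48 genes Il4ra, the receptor gene of interleukin-4, had the smallest p, with 6.85, 21.2 and 62.3 CPM in MM organoids against 26.9, 108 and 205 CPM in 2D in the sarcomatoid lines and log2 differences of 1.09, -0.34 and 1.57 in m5, m12 and m60 (difference of the effects -2.72, 95% confidence interval -3.99 to -1.45, adjusted p = 0.863). In the DNA replication and mitosis list 13 of 30 genes had an unadjusted p under 0.05 for the interaction, with medians of -0.46, -0.04 and 0.46 in m28, m54 and m107 and of -1.35, -0.36 and -2.46 in m5, m12 and m60. The sterol list, with 24 genes in this fit, had medians of 1.88, 1.81 and 0.80 in m28, m54 and m107 and of 0.55, 2.94 and -0.53 in m5, m12 and m60, and 0 of them had an unadjusted p under 0.05. With 3 lines each, a p that misses the threshold does not show that both histologies respond alike.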

How the data were processed

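RNA of 7 MM lines was sequenced in both cultures, and 6 samples of normal mesothelial cells were not analysed here. By the submitters' processing notes and the study's methods, the authors used FastQC 0.10.0 for read quality, Trim Galore 0.6.4 for trimming, STAR 2.7.9a for alignment to GRCm39 and HTSeq 0.12.4 for counting reads per gene, and kept protein-coding genes. The authors deposited CPM, reads scaled to the library total, of which 100% were whole reads within 0.001 reads. The authors also deposited a p-value, a q-value and a ranking score from their own edgeR comparison, which were not used.

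Groups and line names came from the labels, and histology from the study. Log2(CPM + 1) of the 6 libraries was fitted with limma 3.58.1 in R 4.3.3 with terms for line and culture, moderated variances with a trend and Benjamini-Hochberg adjustment over 11688 genes (at least 1 CPM in 3 libraries), at a threshold of 0.05. The interaction with histology was fitted on 12 libraries over 12428 genes. The line pairs the libraries because both came from 1 mouse. Deviations from the culture means correlated with r = 0.670, 0.593 and 0.722 within m28, m54 and m107 and below 0 between lines. The deviations of the 3 lines sum to 0 in each culture, so values below 0 between lines are largely built in. Replicates within a line were not sequenced, so p-values rest on the spread between 3 lines, moderated by that of the other genes. The prior taken from all genes had 4.17 degrees of freedom, beside 2 residual ones for each gene. Values after ± are limma's standard errors from these moderated variances, and can differ from the spread of the 3 differences of a gene. The fits were also run on simulated reads whose culture effect was the same in all lines. That setting cannot show how they handle changes that differ between lines.

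Named genes were the 15 largest rises and falls past the threshold that had 1 direction in 3 lines and averaged 5 CPM or more, genes that the study named, up to 4 genes per direction of each list by p and, where a list did not move, its most abundant genes. Others are marked, and 1 gene past the threshold is not reported here. Members and lists were chosen with earlier results of these data known. Alternatives were pseudocounts of 0.1 and 5, other filters, TMM and quantile scaling, no line term, edgeR 4.0.16 (0 genes called) and DESeq2 1.42.0 (795 called) on the recovered reads, a fit of all 14 libraries, and each line left out. A fit of 10 libraries and m60 as the only biphasic line were added after the data were seen. Tables and plots were made with Python 3.11.15, pandas 2.3.3 and matplotlib 3.10.9.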

Additional observations from a re-analysis of the deposited data

How the results depend on the processing

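Of the 48 genes past the threshold, 47 kept their direction under all 14 alternatives and Sox8 under the 13 in which it was tested. Most of this was fixed in advance, because each gene had 1 direction in 3 of 3 lines. Other pseudocounts, filters or sets of libraries, no line term or a line left out could not turn a sign. Only TMM and quantile scaling, edgeR and DESeq2 could. The count did not hold. It was 31 with a pseudocount of 0.1 (30 shared with the 48), 0 by limma with no filter (1899 unadjusted), 0 by edgeR's quasi-likelihood test (1572 unadjusted, smallest adjusted p 0.059), 0 with all 14 libraries in 1 fit (1023 unadjusted), 119 with quantile normalization (47 shared) and 795 with DESeq2 (48 shared). DESeq2 called 381 genes higher and 414 lower in MM organoids, beside 17 and 31. In the fit of 10 libraries without m5 and m12, added after the data were seen, the count was 103 (42 shared). Without 1 line the count ran from 0 (m54) to 272 (m28). Paired by line, 48 genes passed, and with no replicate block 0 did (684 unadjusted). Counts of 35, 61 and 62 came from a pseudocount of 5, TMM scaling and a mean of at least 10 CPM. The cause of these shifts was not tested.

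For the interaction with histology, 0 genes passed by limma or edgeR under each of the 12 alternatives (283 to 1370 at an unadjusted p under 0.05). Of the other genes named in the text 6 changed sign. Their log2 differences by TMM, edgeR and DESeq2 were -0.029, -0.029 and -0.037 for Rpl8, -0.080, -0.080 and -0.089 for Rps2, -0.041, -0.041 and -0.049 for Atp5b, and -0.020, -0.023 and -0.031 for Top2a. Without 1 line they ran from -0.025 to 0.59 (Mki67), -0.24 to 0.28 (Top2a), -0.056 to 0.058 (Rps2), -0.039 to 0.16 (Atp5b), -0.019 to 0.30 (Cox4i1). TMM scaling moved the median of all genes from 0.10 to 0.02. With 3 lines, changes that differ between lines could not be resolved, and genes at a few reads carry counting error that the CPM do not show.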
